A study of Mus musculus with 2 samples.

Results

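A set of 10 genes for proteins of neutrophil granules and for related antimicrobial proteins was followed in mouse back skin: S100a8, S100a9, Lcn2, Ngp, Camp, Ltf, Retnlg, Mpo, Elane and Slpi. The rule names them by what their proteins do, although earlier results of these data were known when they were picked, and all 10 of them had a row among the 24421 genes of the count table. Whole-layer skin of wild type C57BL6/J mice was compared after 5 days with 33% strain (Tension) and after 5 days without strain (Control), with 1 library in each group. The methods describe young adult female mice whose hair was in its resting phase, and a skin-stretching device fixed on the back. They state that strain was raised each day from its initial value, and do not say whether the Control skin carried the device. The sources used here do not state whether a library held RNA of 1 mouse or of several. With 1 library per group no difference below has a replicate check, and the intervals given are exact 95% intervals that cover counting error only.

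Neutrophils carry ready-made antimicrobial proteins in granules that are filled while the cells mature in the bone marrow. The genes of azurophil granules, such as Mpo and Elane, are transcribed in early precursors, and those of specific granules, such as Ltf, Camp and Ngp, in later ones, so a mature cell holds much of the protein and little of the messenger RNA. S100a8 and S100a9 encode the 2 subunits of calprotectin, an abundant cytosolic protein of neutrophils that binds zinc, manganese and calcium, and their transcripts persist in mature cells. In skin, S100a8, S100a9, Lcn2 and Slpi can also be made by keratinocytes after injury.

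The sequence before the start of the 5 members with more reads in stretched skin is shown so that the short motifs they hold can be compared. The windows are RefSeq sequences of GRCm38.p6, 5′ to 3′ on the strand of the gene, and run from 250 bases before the RefSeq start to 10 bases after it. Capitals mark matches, on either strand, to TTGCNNAA (bound by C/EBP factors), GAGGAA (the ETS core bound by PU.1), TGANTCA (AP-1) and TATAAA (the TATA box).
S100a8 (chr3:90668821-90669080, plus strand): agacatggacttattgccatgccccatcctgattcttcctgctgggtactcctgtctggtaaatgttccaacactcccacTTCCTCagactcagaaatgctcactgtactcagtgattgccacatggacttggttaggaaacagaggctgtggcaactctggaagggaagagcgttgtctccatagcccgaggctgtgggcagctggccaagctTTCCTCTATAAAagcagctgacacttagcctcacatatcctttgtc
S100a9 (chr3:90695712-90695971, minus strand): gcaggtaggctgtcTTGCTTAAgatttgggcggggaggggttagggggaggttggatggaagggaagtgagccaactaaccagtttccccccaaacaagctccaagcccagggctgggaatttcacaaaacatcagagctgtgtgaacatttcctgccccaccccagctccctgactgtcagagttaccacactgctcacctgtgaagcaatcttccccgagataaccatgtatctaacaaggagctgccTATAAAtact
Lcn2 (chr2:32387730-32387989, minus strand): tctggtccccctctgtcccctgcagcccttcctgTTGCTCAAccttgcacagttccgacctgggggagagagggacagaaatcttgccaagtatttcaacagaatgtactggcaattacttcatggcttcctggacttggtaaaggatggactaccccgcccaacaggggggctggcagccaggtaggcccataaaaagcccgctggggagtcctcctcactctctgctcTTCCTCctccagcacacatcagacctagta
Retnlg (chr16:48872358-48872617, plus strand): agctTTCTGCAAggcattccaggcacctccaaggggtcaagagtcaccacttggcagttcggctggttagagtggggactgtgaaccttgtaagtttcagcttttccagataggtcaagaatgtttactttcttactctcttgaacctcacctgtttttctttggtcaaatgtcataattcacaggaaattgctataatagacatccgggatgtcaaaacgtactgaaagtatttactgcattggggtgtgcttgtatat
Slpi (chr2:164356498-164356757, minus strand): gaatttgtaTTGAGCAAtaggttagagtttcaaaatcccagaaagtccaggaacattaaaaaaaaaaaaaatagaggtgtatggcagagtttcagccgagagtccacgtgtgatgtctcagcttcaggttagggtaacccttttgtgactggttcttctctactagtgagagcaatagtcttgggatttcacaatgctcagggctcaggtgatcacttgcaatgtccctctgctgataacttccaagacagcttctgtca

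A match to TTGCNNAA lay in the windows of S100a9, Lcn2, Retnlg and Slpi. A match to GAGGAA, read as TTCCTC on the other strand, lay in those of S100a8 and Lcn2. S100a8 held TATAAA from base -30 to base -25, directly after a TTCCTC from base -36 to base -31, and S100a9 held TATAAA from base 1 to base 6 of its RefSeq transcript. None of the matches overlapped another motif. In the full 300-base windows of all 10 members, 6 held TTGCNNAA against 10.8% of 32851 promoters of the same length, 5 held GAGGAA against 28.3%, 2 held TATAAA against 13.6% and 0 held TGANTCA against 7.81%. These are matches of letters and not measured binding.

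The Control library held 14152379 counts and the Tension library 11648655. For fold changes, counts of 3 or fewer were set to a floor of 3. This floor stood for 0.212 CPM (the count scaled by its library total) in Control and 0.258 CPM in Tension. Keratin and collagen genes that define skin were present in both libraries, with 61216 and 50601 counts of Krt5 and 168121 and 277385 counts of Col1a1 in Control and Tension. The median log2 fold change of Tension over Control was -0.12 over 16255 genes, those that exceeded 3 counts in Control, in Tension or in both. All fold changes below are ratios of CPM.

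Stretched skin held more reads of 5 of the 10 genes, S100a8, S100a9, Lcn2, Retnlg and Slpi, and few or no reads of the other 5. The counting interval lay above 0 for those 5 among the 6 members above 3 counts in at least 1 library, against 18.1% of all such genes. Of the 5, Retnlg exceeded 3 counts in Tension alone, so it entered this comparison through the library where it was higher. A call with the thresholds of the study's methods, a fold of at least 2 and a product of both values above 10, was made on FPKM (CPM per kilobase of exon) with 1 added to each value, an addition made here. It took 3 members as upregulated, S100a8, S100a9 and Slpi, out of 4 that could be tested, against 2.61% of the 10908 genes tested. With nothing added to the FPKM values it took 2, S100a8 and S100a9, so the call of Slpi rests on the added 1. The summed count of the 10 genes was 228 in Control and 725 in Tension, or 16.1 and 62.2 CPM. The median log2 fold change of the 6 measured members was 1.78.

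**Figure D1:**
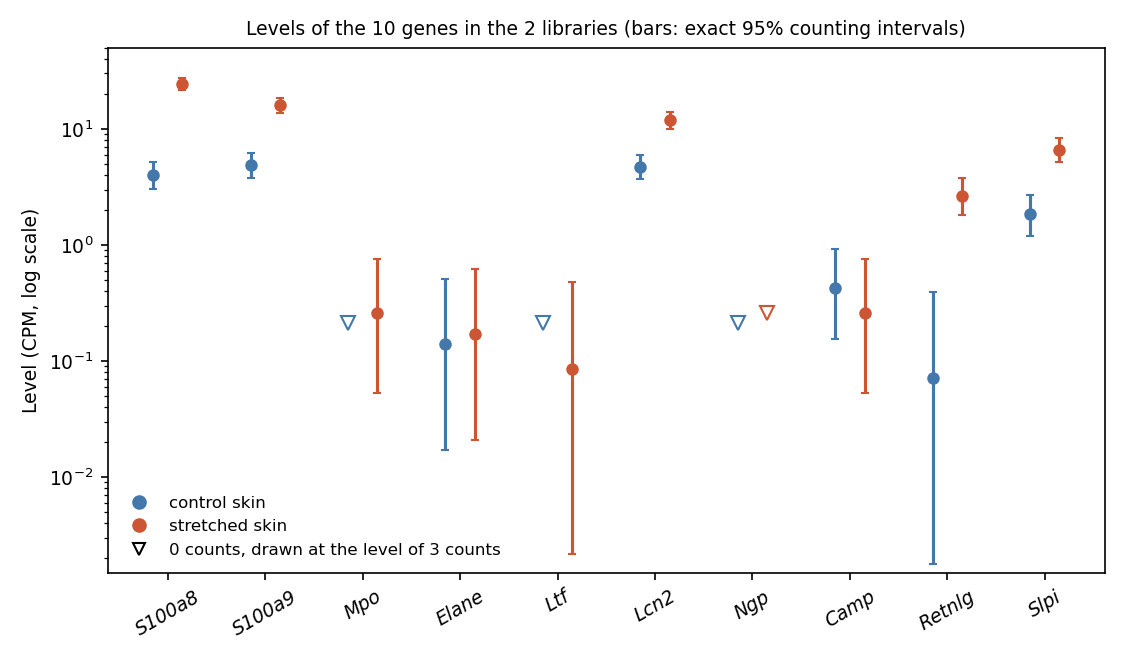
Level of each of the 10 genes in Control (blue) and in Tension (orange), in CPM on a log axis, with 1 library per group, bars for the exact 95% counting interval and open triangles at the level of 3 counts where the count was 0. S100a8, S100a9, Lcn2, Slpi and Retnlg were higher in Tension, and Mpo, Elane, Ltf, Ngp and Camp lay at or near 0 counts in both libraries.

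S100a8 (mm10 chr3:90668978-90670035, plus strand) was read 57 times in Control and 283 times in Tension. Its level was 4.03 CPM in non-stretched and 24.3 CPM in stretched skin, a 6.03-fold difference, or 2.59 on the log2 scale (interval 2.18 to 3.03). Per length its FPKM lay above that of 53.6% of the measured genes in Control and of 92.0% in Tension. Its log2 fold change stood at percentile 99.5 of all measured genes.

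S100a9 (chr3:90692632-90695721, minus strand), for the other calprotectin subunit, was read 69 times in Control and 187 times in Tension. This corresponded to 4.88 and 16.1 CPM, a 3.29-fold difference, or 1.72 on the log2 scale (interval 1.31 to 2.14). The levels per length were 9.34 and 30.8 FPKM. The ratio of S100a8 to S100a9 reads was 0.826 in Control (interval 0.571 to 1.19) and 1.51 in Tension (interval 1.25 to 1.83), so that the balance of the subunit transcripts differed 1.83-fold between the libraries (interval 1.21 to 2.78). Together both genes gave 126 of the members' reads in Control and 470 in Tension, or 55.3% and 64.8%.

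Lcn2 (chr2:32384633-32388252, minus strand) encodes lipocalin 2, which binds bacterial siderophores and so withholds iron. It was read 67 times in Control and 138 times in Tension, or 4.73 and 11.8 CPM. The fold was 2.50, or 1.32 on the log2 scale (interval 0.89 to 1.77). With 1 added to each FPKM value the ratio was 1.97, just under the 2-fold threshold, so Lcn2 was not called. Lcn2 passed under 6 of 11 alternatives to the call, whereas S100a8 and S100a9 passed under all 11 and Slpi under 8.

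Slpi (chr2:164354070-164389095, minus strand) encodes the secretory leukocyte protease inhibitor, which blocks neutrophil elastase. This span is that of the gene in GENCODE, which begins further upstream than the RefSeq start used for the window above. It was read 26 times in Control and 77 times in Tension, or 1.84 and 6.61 CPM. The fold was 3.60, or 1.85 on the log2 scale (interval 1.19 to 2.55). Its level per length was 1.56 FPKM in non-stretched and 5.60 FPKM in stretched skin. Reads of Elane, the protease that Slpi inhibits, numbered 2 in each library.

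Retnlg (chr16:48872621-48874496, plus strand), a resistin-like gene expressed in neutrophils and their marrow precursors, was read once in Control and 31 times in Tension. The levels were 0.0707 and 2.66 CPM. The ratio of the counts as they stand was 37.7, with a counting interval from 6.28 to 1535, and with the Control count set to 3 it was 12.6. Retnlg thus had the widest interval of the 5 genes, and the product of its FPKM + 1 values, 6.14, was too low for the call.

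Reads of 5 genes made in neutrophil precursors, Mpo, Elane, Ltf, Ngp and Camp, stayed at or near 0. Not all granule genes were so low, since Lcn2 of specific granules had 67 and 138 reads and Prtn3 of azurophil granules 17 and 18. Mpo (chr11:87793581-87804413, plus strand), for myeloperoxidase, had 0 reads in Control and 3 in Tension. Elane (chr10:79886247-79888215, plus strand), for neutrophil elastase, had 2 in both. Ltf (chr9:111019271-111042767, plus strand), for the iron-binding lactoferrin, had 0 and 1. Ngp (chr9:110419747-110423012, plus strand), for neutrophilic granule protein, had 0 in both, with an upper bound of the exact interval of 0.261 CPM in Control and 0.317 CPM in Tension. Camp (chr9:109847379-109849617, minus strand), for the cathelicidin antimicrobial peptide, had 6 and 3, with a log2 fold change of -0.72 and an interval from -3.35 to 1.51 that included 0. The 5 genes together had 8 reads in Control and 9 in Tension. Some exon bases of Mpo overlap the antisense gene Gm11505, and 6.85% of its 76-base stretches occur elsewhere in the transcripts, whereas no stretch of the other 9 members did.

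**Figure D2:**
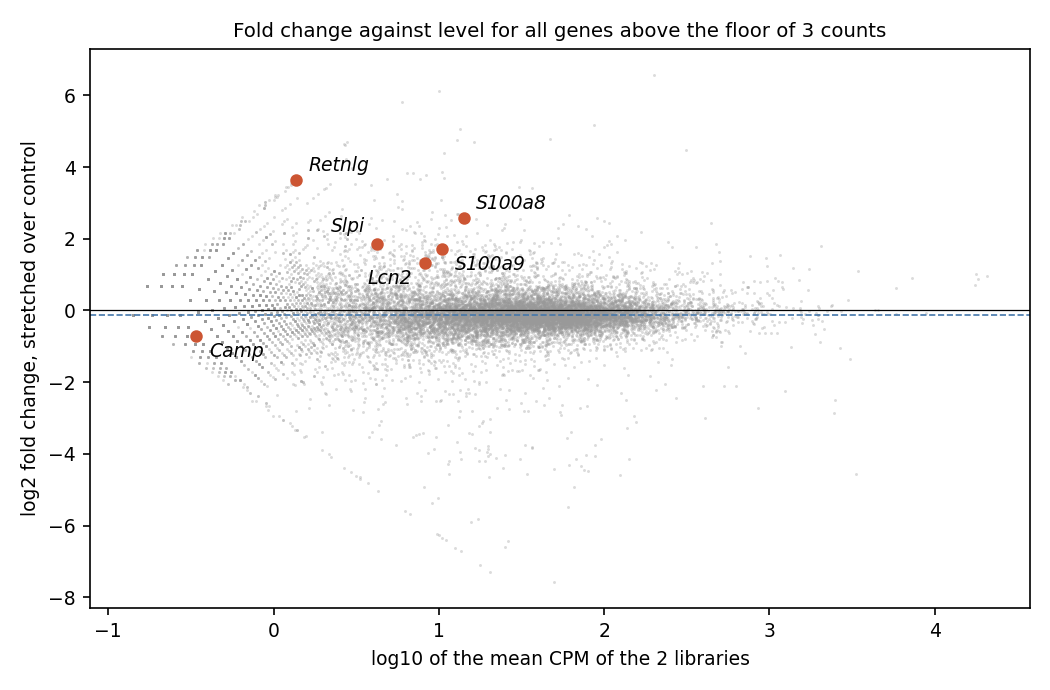
Log2 fold change of Tension over Control for all measured genes (grey) against the log10 of their mean CPM, with the 6 measured members in orange and the median of all genes, -0.12, as a dashed line. S100a8, S100a9, Lcn2, Slpi and Retnlg stood above the median, and Camp below it.

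Genes for neutrophil surface and signalling proteins were higher in stretched skin along with these members. Of 18 measured, 14 had an interval above 0 and 2 below, where the shares of all measured genes were 18.1% and 33.5%. The median log2 fold change was 2.11. Of the 14, Fpr1, Trem1 and Cd177 exceeded 3 counts in Tension alone. Csf3r, the receptor for the neutrophil growth factor G-CSF, was read 50 times in Control and 235 times in Tension, or 2.51 on the log2 scale (interval 2.07 to 2.98). Cxcr2, the chemokine receptor that guides neutrophils into tissue, was read 25 and 77 times (1.90, interval 1.24 to 2.62). Clec4d, a C-type lectin of myeloid cells, was read 9 and 83 times (3.49). Il1b, for interleukin 1 beta, was read 37 and 179 times (2.56). In the opposite direction, Padi4, whose enzyme citrullinates histones in neutrophils, was read 397 times in Control and 119 times in Tension, or -1.46 on the log2 scale (interval -1.77 to -1.16).

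The 7 neutrophil markers measured here, Csf3r, Cxcr2, Fpr1, Fpr2, Mmp8, Cd177 and Trem1, all had intervals above 0, with a summed level of 6.50 CPM in Control and 36.5 CPM in Tension, where 18.1% of all measured genes had an interval above 0 and 33.5% below. This set is not separate from the gene groups around it, since 6 of its genes are among the surface genes above and Mmp8 is among the granule genes below, and Fpr1, Cd177 and Trem1 exceeded 3 counts in Tension alone. Fpr2 has 20.6% of its stretches in common with other genes, and Csf3r alone of the 7 could be tested for the call. Ly6g, also planned as a neutrophil marker, had no row in the count table. All 7 macrophage and monocyte markers were higher too, from 328 to 747 CPM in sum. The 6 general keratinocyte markers summed to 16409 and 16377 CPM, with 3 intervals above 0 and 2 below, from Krt14 at 0.28 to Dsp at -0.67 on the log2 scale. Of 6 markers of stressed keratinocytes, 4 had intervals above 0, among them Krt16 with 849 and 3182 counts and Sprr1b with 90 and 548, whereas Krt17, which weighs most in their sum, was lower with 19209 and 10271 counts (-0.62) and the sum was 1627 and 1642 CPM. Stretches that also occur in another gene made up 50.8% of Krt6a, 39.2% of Krt6b and 28.7% of Krt16, and without these keratins the median log2 fold change of the list turned from 1.46 to -0.33. Of the eosinophil and basophil markers, 3 were measured and 0 had an interval above 0. Of 10 erythroid and platelet markers, 6 globin genes had 0 counts in both libraries, of which the 4 with a known length share 51.4% to 84.4% of their stretches with another gene. Alas2 was read 83 and 67 times, and Pf4, for platelet factor 4, 353 and 604 times (1.06, interval 0.86 to 1.25). The part of each of these cell types in the members' differences was not tested. In these bulk libraries, more cells of a type and more RNA per cell cannot be told apart.

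Most other genes for granule and phagocyte proteins had more reads in stretched skin. Of 22 measured, 17 had an interval above 0, against 18.1% of all measured genes. Mmp25, with 3 and 14 counts, was among these and exceeded 3 counts in Tension alone. By the call, 8 of the 17 that could be tested were upregulated, against 2.61%. Subunits of the NADPH oxidase, which makes superoxide, were among the genes called, with 179 and 450 counts of Cybb (log2 fold change 1.61) and 59 and 156 of Ncf4 (1.68). Lyz2, the lysozyme of macrophages and neutrophils, was read 3975 and 8471 times (1.37), and Chil3, a chitinase-like protein, 31 and 214 times (3.07), although 12.5% of its stretches occur in other genes. Mmp8, the neutrophil collagenase, was read 4 and 18 times (2.45). Prtn3, for proteinase 3 of azurophil granules and the gene next to Elane, was read 17 and 18 times, with an interval that included 0 (-0.68 to 1.41).

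**Figure D3:**
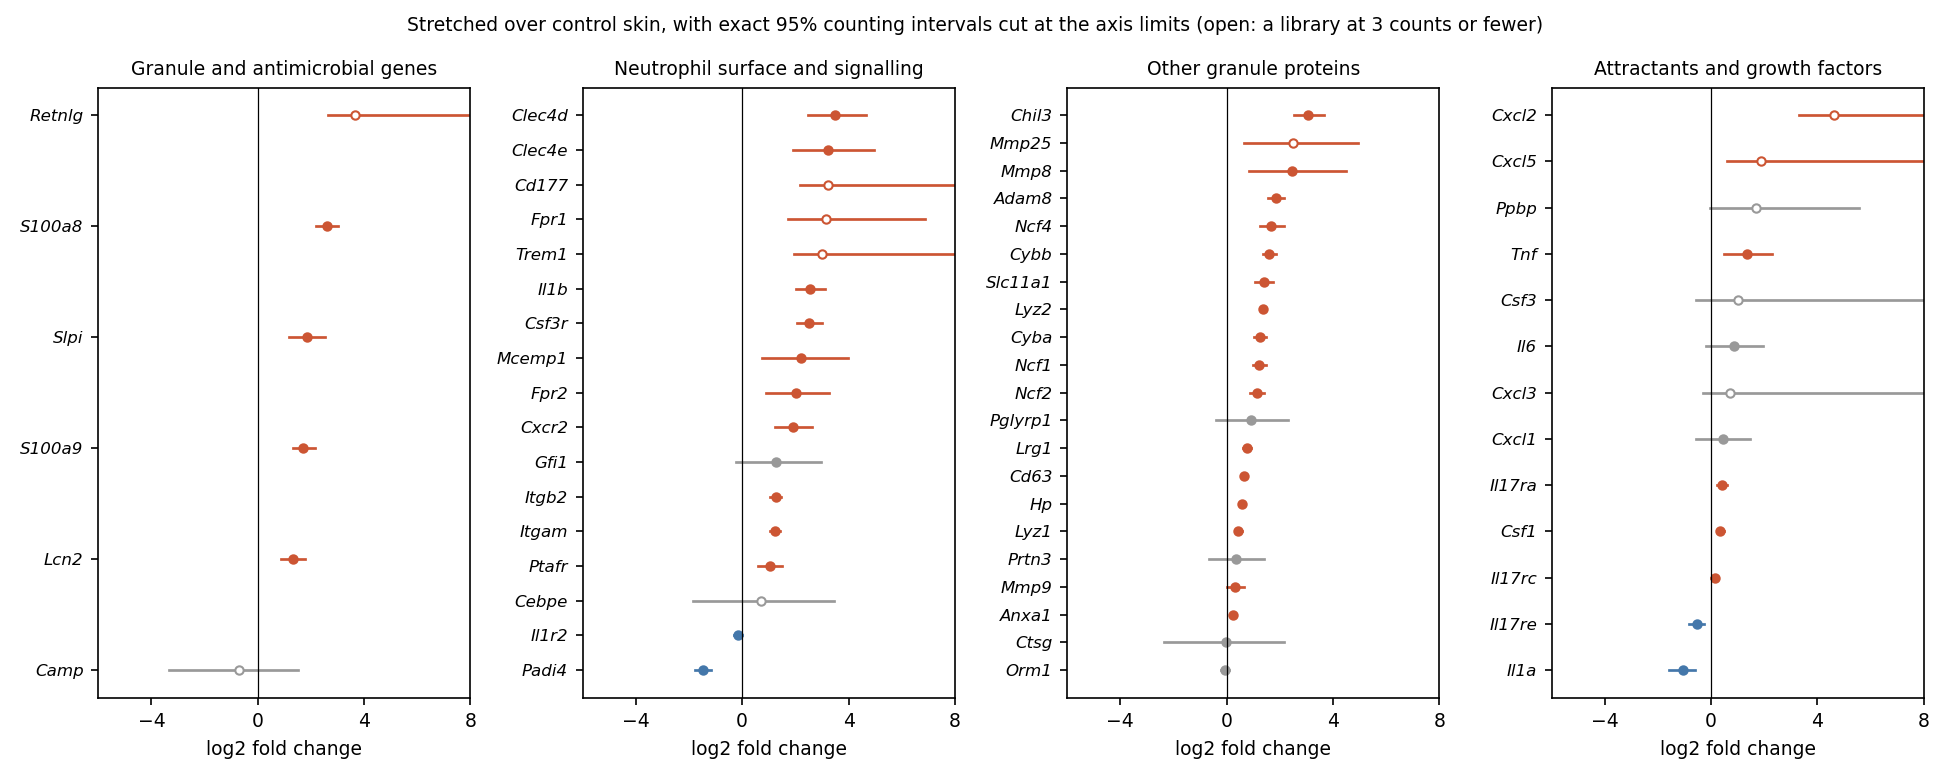
Log2 fold change of Tension over Control with exact 95% counting intervals for the measured genes of 4 groups, in orange where the interval lay above 0, blue below and grey including 0, and open where a library held 3 counts or fewer. Intervals lay above 0 for 5 of 6 members, 14 of 18 neutrophil surface genes, 17 of 22 other granule genes and 6 of 13 genes for attractants, growth factors and IL-17 receptor subunits, counts that include genes not drawn.

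Dividing the members' reads by those of Csf3r sets them against a neutrophil transcript of the same library; this comparison was chosen after the values were seen. S100a8 gave 1.14 reads per Csf3r read in Control and 1.20 in Tension, a ratio of 1.06 (interval 0.68 to 1.64). S100a9 gave 1.38 and 0.796, a ratio of 0.577 (interval 0.373 to 0.888), and Lcn2 gave 1.34 and 0.587, a ratio of 0.439 (interval 0.281 to 0.683). Slpi gave 0.520 and 0.328, with an interval of the ratio, 0.357 to 1.13, that included 1. The interval of S100a8 included 1, while S100a9 and Lcn2 differed less than Csf3r beyond counting error. Retnlg gave 0.02 and 0.132, from 1 read in Control, a ratio of 6.57 (interval 1.04 to 274). Cxcr2, also expressed by neutrophils, gave 0.50 and 0.328 (interval of the ratio 0.370 to 1.18). Set against Krt16, the stressed keratinocyte gene, S100a8 and Slpi again had intervals that included 1, and S100a9 and Lcn2 again lay below 1, so that this pattern does not set Csf3r apart from Krt16. The ratio of Tension to Control was 1.32 for S100a8 (interval 0.983 to 1.81), 0.723 for S100a9 (interval 0.540 to 0.978), 0.550 for Lcn2 (interval 0.403 to 0.755) and 0.790 for Slpi (interval 0.497 to 1.29).

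**Figure D4:**
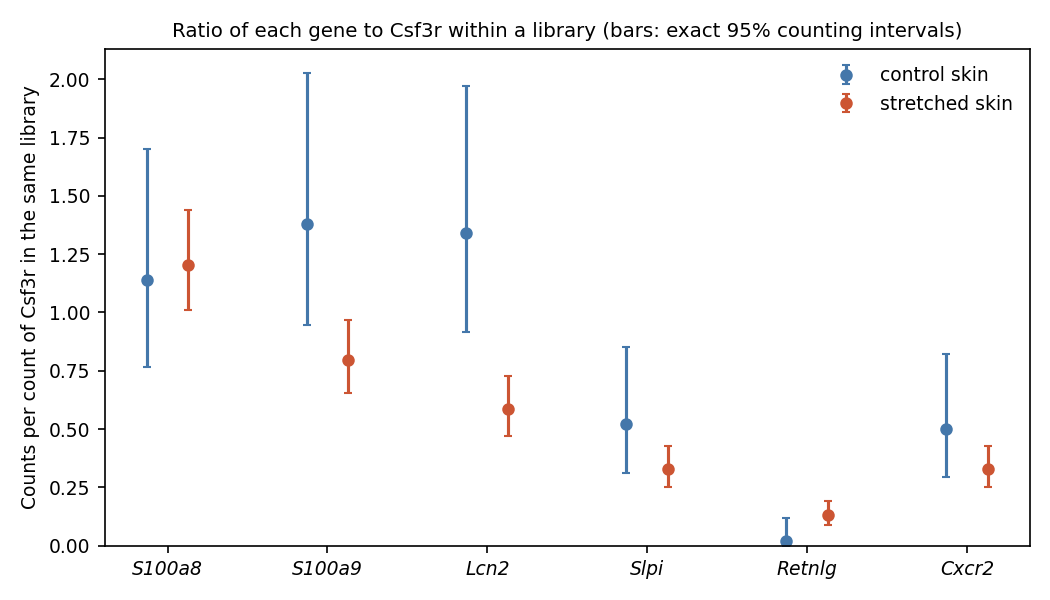
Reads per Csf3r read in Control and in Tension for S100a8, S100a9, Lcn2, Slpi, Retnlg and Cxcr2, with bars for the exact 95% counting interval. S100a8 had 1.14 and 1.20 reads per Csf3r read, and S100a9 and Lcn2 had fewer per Csf3r read in Tension than in Control.

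S100a8 and S100a9 lie 22596 bases apart in a cluster of 12 S100 genes on chromosome 3, where 10 were above 3 counts in at least 1 library. Of the other 8 measured genes of the cluster, 3 had an interval above 0, 4 below and 1 including 0 (18.1% above and 33.5% below for all measured genes), with a median log2 fold change of -0.27. S100a7a, an antimicrobial S100 gene of the epidermis and the next gene before S100a8, was read 317 times in Control and 45 times in Tension (-2.54, interval -3.02 to -2.08). S100a3, expressed in the hair cuticle, was read 3820 and 405 times (-2.96, interval -3.11 to -2.81). S100a4, found in fibroblasts and leukocytes, was read 897 and 1840 times (1.32), with 44.7% of its stretches shared with other genes.

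**Figure D5:**
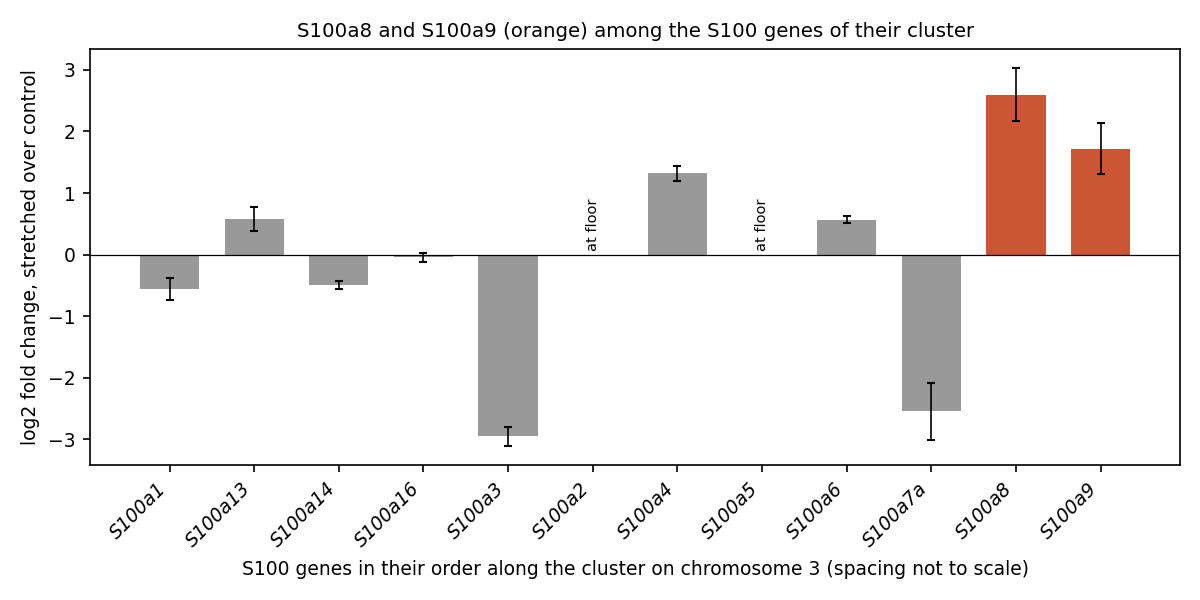
Log2 fold change of Tension over Control for the S100 genes of the chromosome 3 cluster, in genome order, with exact 95% counting intervals and S100a8 and S100a9 in orange. S100a8 and S100a9 stood at 2.59 and 1.72, S100a3 and S100a7a at -2.96 and -2.54, and S100a2 and S100a5 had 0 reads.

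Among 7 measured WFDC genes, the family of Slpi, 2 had intervals above 0 and 2 below, near the 18.1% and 33.5% of all measured genes. Wfdc17 was read 149 and 415 times (1.76, interval 1.49 to 2.04), and Wfdc21 was read 819 and 483 times (-0.48, interval -0.65 to -0.32). Of 7 measured relatives of Retnlg, Ltf and Mpo and their partners, 1 had an interval above 0, 3 below and 3 including 0, against the same shares. Retn, the adipocyte hormone resistin, was read 1504 and 820 times (-0.59), and Retnla 879 and 698 times (-0.05, interval -0.20 to 0.09). Trf, for transferrin, a relative of lactoferrin, was read 5567 and 3593 times (-0.35), with 55.8% of its stretches also in other genes, and Tfrc, the receptor of transferrin, 1811 and 918 times (-0.70). Pxdn, for the peroxidase peroxidasin, was read 2108 and 1994 times (0.20, interval 0.11 to 0.29).

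Of 13 measured epithelial antimicrobial genes, 3 had an interval above 0, 3 below and 7 including 0, against 18.1% above and 33.5% below over all measured genes, so these counts are near the background. The beta-defensin genes Defb1 and Defb6 were lower, with 208 and 132 counts (-0.38) and 572 and 379 counts (-0.31). Reg3g, for a bactericidal lectin of epithelia, had 0 reads in Control and 13 in Tension, 5.26-fold higher against a floor of 3 counts and with a counting interval of the fold from 3.70 upwards. Of 8 measured stefins, cysteine protease inhibitors some of which neutrophils express, 6 had an interval above 0, against 18.1% of all measured genes. Of the 6, Stfa2l1 and Gm5483 exceeded 3 counts in Tension alone. The median log2 fold change was 0.77 over the 8, and 0.66 over the 5 with at least 20 counts over both libraries. Csta1 was lower, with 469 counts in Control and 297 in Tension (-0.38, interval -0.59 to -0.17).

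Of 13 measured genes for attractants, growth factors and IL-17 receptor subunits, 6 had intervals above 0, 2 below and 5 including 0. The shares over all genes were 18.1% above and 33.5% below. Of the 6, Cxcl2 and Cxcl5 exceeded 3 counts in Tension alone. Cxcl2, a ligand of Cxcr2, was read 2 times in Control and 61 times in Tension, a ratio of 37.1 for the counts as they stand, with a counting interval from 9.83 to 313, and of 24.7 with the Control count set to 3. Cxcl1, another ligand of the same receptor, was read 17 and 19 times (0.44, interval -0.58 to 1.48). Tnf was read 17 and 36 times (1.36, interval 0.49 to 2.29), and Il1a, for interleukin 1 alpha, 130 and 51 times (-1.07, interval -1.57 to -0.59). Among receptors for the encoded proteins, 3 of 9 measured had an interval above 0 and 3 below, against 18.1% and 33.5% of all genes. Tlr4, which binds calprotectin, was read 148 and 237 times (0.96, interval 0.66 to 1.27). Ager, the other classical calprotectin receptor, was read 23 times in each library, and Slc22a17, a lipocalin 2 receptor, 283 and 279 times (0.26). Cd36, a scavenger receptor, was lower, with 4280 and 2634 counts (-0.42, interval -0.49 to -0.35).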

How the data were processed

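RNA of whole-layer skin was prepared with a TruSeq RNA v2 kit, and reads were mapped to mm10 with TopHat2, per the labels. The authors deposited raw counts per gene symbol, 1 column per library; the counting tool and its use of strand are not given in the sources used here. The members and gene lists were chosen with earlier results of these data known. CPM was the count divided by the library total. Each fold change was the CPM in Tension over that in Control, with a 95% interval by the exact Clopper-Pearson method; counts of 3 or fewer were set to 3, and no fold was given where both were at 3 or fewer. FPKM, computed from the deposited counts and the union of exons in GENCODE M21 (mm10), served for levels per length and for the call (product above 10 and fold 2 or 0.5 as in the study's methods, with a pseudocount of 1 added here). Stretches of 76 bases found in more than 1 gene measured shared sequence. Genes outside the 10 members were named where both libraries held 10 counts or more in sum, and others as being at or near 0 counts. The intervals cover counting error only: reads without molecular identifiers are not independent molecules. No p-value was computed with 1 library per group. Python 3.11.15, scipy 1.17.1, edgeR 4.0.16 and DESeq2 1.42.0 (scaling factors alone) were used, and the scripts were tested on simulated data. Some genes of the lists entered the counts and medians but are not reported here by name.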

Additional observations from a re-analysis of the deposited data

How the results depend on the processing

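No paired analysis was possible because each condition has 1 library, which also bars leaving a library out. The members' fold changes were recomputed with 4 other scalings, 0.5 count added or 1 CPM added, giving 36 values, of which 35 stayed within their counting interval and 0 changed sign. Retnlg, with 1 read in Control, fell to a log2 fold change of 1.77 with 1 CPM added to each value. Scaling by TMM, upper quartile, median of ratios or library totals that omit the 50 most counted genes raised every log2 fold change by 0.10, 0.10, 0.11 or 0.06; applying these to the members' median was chosen after seeing the data. The number of members called upregulated was 3, and it was 4 with each of those scalings, with CPM or with the longest transcript, adding Lcn2, and 4 with no filter on the product, adding Retnlg. It was 2, S100a8 and S100a9, with a pseudocount of 0 or 0.1 or a product above 100. With 1 CPM added to each value, the median of the neutrophil surface genes fell from 2.11 to 1.28 and that of the neutrophil markers from 2.51 to 1.34. Of the gene lists' medians, that of the stressed keratinocyte markers reversed to -0.33 on removal of genes with at least 10% of stretches in common with others, which leaves 3 genes. The median of the WFDC genes lay near 0 at -0.08 and became 0.02 with TMM, 0.03 with median of ratios and 0.02 with upper quartile. Depth limits Mpo, Elane, Ltf, Ngp and Camp most.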
